A study of Caenorhabditis elegans with 2 samples.

Results

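Transfer RNA (tRNA) genes encode the short adaptor RNAs that carry amino acids to the ribosome, and they are transcribed by RNA polymerase III. They were taken as all genes of the tRNA class in the Ensembl models of the Caenorhabditis elegans assembly WBcel235 (build ce11), which gave 612 of the 46890 annotated genes on the 6 nuclear chromosomes. The question was which of them coincided with regions recovered by chromatin immunoprecipitation followed by sequencing (ChIP-seq) of the transcription factor SOX-4, and what the recovered genes shared. The libraries came from strain OP517, genotype unc-119(tm4063) III; wgIs517, a transgenic line with a GFP-FLAG tag at the C terminus of SOX-4, and the precipitation used an antibody against GFP. Whole embryos of mixed sex were collected at the late embryo stage, 4 hours after synchronization by bleaching, as 1 group of 2 biological replicates with 1 library each. All libraries carried the transgene and the unc-119 allele, and no library without the tagged protein was analysed here.

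RNA polymerase III reads its promoter from inside a tRNA gene. The factor TFIIIC contacts an A box near the start and a B box near the end of the gene, and then places TFIIIB on the DNA just before the start. Genes for the same amino acid form an isotype, genes with the same anticodon read the same codons, and many tRNA genes of this worm are identical copies of each other at distant places. SOX-4 is a member of the SOX family of HMG-box transcription factors, known for roles in cell fate.

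Sequences are shown first because recovered and unrecovered genes differed most clearly in the base composition of the flank before the gene. The GC content of the gene itself was alike. They were read from the RefSeq copy of WBcel235 (ce11) and run 5′ to 3′ on the strand of the gene. C04A11.t1, a leucine gene at chrX:13665555-13665673 (plus strand) between protein-coding genes, had the strongest region of all tRNA genes. It is a single copy with an intron of its own, and the capitals mark its B box core.

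C04A11.t1, gene: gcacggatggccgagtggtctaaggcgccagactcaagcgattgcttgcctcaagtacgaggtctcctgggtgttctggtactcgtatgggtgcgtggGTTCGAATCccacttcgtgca

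The 100 bp before 3 of the strongest genes are given next, with every GAGAGA or its complement TCTCTC in capitals. They are chrX:13665455-13665554 (plus strand) before C04A11.t1, chrX:16634902-16635001 (minus strand) before the histidine gene C06G1.t1, and chrX:12106220-12106319 (minus strand) before the lysine gene W03G11.t1. Their GC contents were 50%, 52% and 53%. They do not stand for all of the 10 strongest genes, of which 6 had either word there. The flanks of those 10 ran from 41% to 53% GC. Among the genes with neither word, F17H10.t1 and F15G9.t1 had signals of 548 and 542 in the pooled list.

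C04A11.t1, before the gene: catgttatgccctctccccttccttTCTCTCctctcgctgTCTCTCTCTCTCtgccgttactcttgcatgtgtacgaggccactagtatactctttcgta
C06G1.t1, before the gene: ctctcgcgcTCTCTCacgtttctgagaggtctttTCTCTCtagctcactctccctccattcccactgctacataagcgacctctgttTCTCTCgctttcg
W03G11.t1, before the gene: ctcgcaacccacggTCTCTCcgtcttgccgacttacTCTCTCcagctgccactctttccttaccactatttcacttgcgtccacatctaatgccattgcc

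Both of the next flanks stand before aspartate genes of identical sequence, which differed in signal. F38G1.t2, with chrX:489940-490039 (minus strand) before it, had a signal of 467 in the pooled list. C06G1.t2, with chrX:16619405-16619504 (minus strand) before it, had no region in any list. The flank of F38G1.t2 had 36% GC and a TCTCTC (capitals), and that of C06G1.t2 had 28% GC and none. The 36% is below the mean of 37.3% before all tRNA genes without a pooled region, so F38G1.t2 is not typical of recovered genes in GC content. The 100 bp after these 2 genes differed too, at 43% and 24% GC.

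F38G1.t2, before the gene: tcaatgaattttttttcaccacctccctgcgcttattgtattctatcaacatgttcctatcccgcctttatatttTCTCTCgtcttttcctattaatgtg
C06G1.t2, before the gene: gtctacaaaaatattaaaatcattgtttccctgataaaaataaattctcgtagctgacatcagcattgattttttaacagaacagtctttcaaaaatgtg

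High GC content and GAGAGA before a gene did not always go with a region, and a proline gene shows this. It is 1 of 24 identical copies, of which the strongest was F46G11.t1 (chrX:5801372-5801543, plus strand, flank included), with a signal of 455 in the pooled list. The copy F02H6.t1 (chrIV:14225002-14225173, plus strand) had no pooled region and rank 2622 in replicate 1, although its flank had 46% GC and held GAGAGA. The gene is in capitals and the 100 bp before it in lower case. The summit at F46G11.t1 lay 182 bp before its first base, and the same region had its summit 8 bp before the first base of its neighbour F46G11.t2, on the other strand. The signal given to F46G11.t1 therefore cannot be set against its own flank.

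F46G11.t1: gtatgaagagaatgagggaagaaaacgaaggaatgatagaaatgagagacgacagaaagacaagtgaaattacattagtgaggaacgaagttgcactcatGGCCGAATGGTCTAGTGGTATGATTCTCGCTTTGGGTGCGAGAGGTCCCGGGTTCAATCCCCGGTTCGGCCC
F02H6.t1: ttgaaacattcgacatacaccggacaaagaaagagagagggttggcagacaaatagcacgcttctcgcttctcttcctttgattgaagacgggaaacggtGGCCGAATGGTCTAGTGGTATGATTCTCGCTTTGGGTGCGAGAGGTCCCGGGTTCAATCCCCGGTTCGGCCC

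Each list gives a region's position, its summit and the authors' signal value, a measure of strength against a control alignment that was not scaled between lists. The list of each replicate and the list of both libraries pooled held 30000 regions, weak ones included. The thresholded list held the 668 strongest regions of the pooled list, and a region in it is called a peak here. A gene was given the strongest region with a summit inside it or within 200 bp of it. Read counts were not part of the lists, and the depth behind a value is therefore unknown.

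Of the 612 tRNA genes, 197 (32.2%, Wilson 95% interval 28.6 to 36.0) had a peak. Among all annotated genes counted in the same way the share was 2.09%. A further 188 tRNA genes had only a weaker region of the pooled list, and 227 had no pooled region. The 385 genes with any pooled region were 62.9% of tRNA genes, against 29.2% of all annotated genes. The 197 genes shared 183 distinct peaks, since 14 peaks each served a pair of neighbouring genes. Intervals cover counting error over genes, which are not independent replicates.

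The same genes stood out in each replicate. A region was found at 388 tRNA genes (63.4%) in replicate 1 and at 367 (60.0%) in replicate 2, against 30.2% and 29.7% of all annotated genes. Among the strongest 668 regions of its own list, replicate 1 had 188 tRNA genes and replicate 2 had 174, and 152 genes (24.8%) were in both sets, against 1.42% of all annotated genes. All 152 had a peak, and of the other genes with a peak, 5 were outside the strongest 668 in both replicates. Neither replicate list had a region at 175 genes, and 170 had none in any of the lists. Over the 318 genes with a region in both replicate lists the signal values had a Spearman rho of 0.87, a description over genes that share both libraries.

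Regions near tRNA genes were also stronger than regions elsewhere. Of the 418 pooled regions with a summit within 200 bp of a tRNA gene, 185 (44.3%) were peaks, against 1.63% of the 29582 regions elsewhere and 2.23% of all pooled regions. Their median signal was 115, against 50.9 elsewhere. Of the 183 distinct tRNA peaks, 1 was also within 200 bp of a small nuclear RNA gene, and none was within 200 bp of an annotated snoRNA or microRNA gene.

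**Figure D1:**
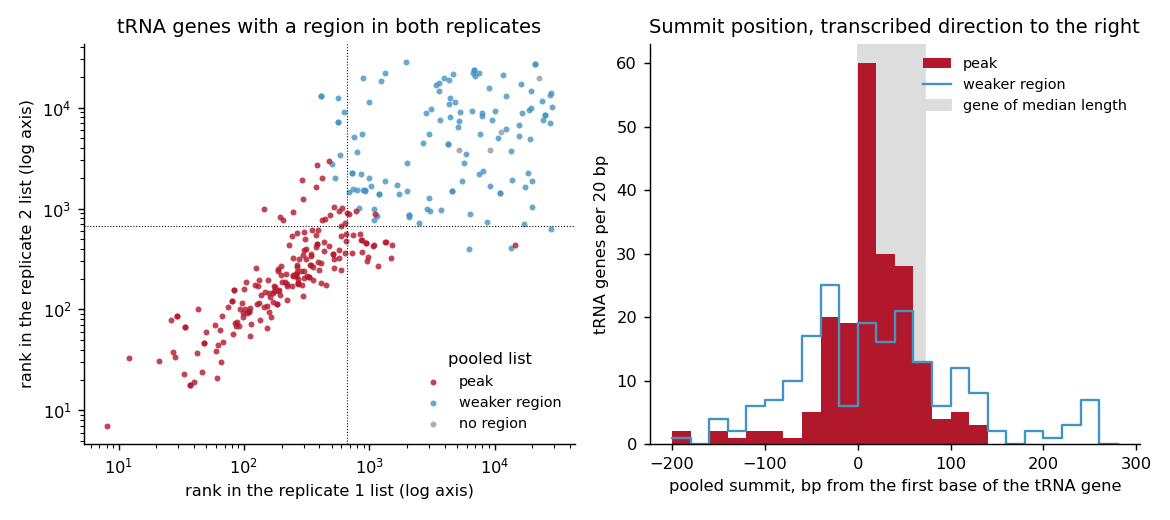
Left, rank of each tRNA gene's strongest region in the list of replicate 1 (x, log axis) and replicate 2 (y, log axis), coloured by its state in the pooled list, with dotted lines at rank 668. Right, pooled summit positions in bp from the first base of the gene (x) and genes per 20 bp (y), bars for the 197 genes with a peak and a line for the 188 with a weaker region; the 20 bp bin at the start of the gene holds 60 peak genes.

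The strongest tRNA genes came from several isotypes. C04A11.t1 had signals of 494 in replicate 1 and 407 in replicate 2, at ranks 8 and 7. It was followed in the pooled list by T21B4.t1, an isoleucine gene in an intron of the collagen gene col-85, with 388 in replicate 1 and 233 in replicate 2. Next came C37A2.t1, a cysteine gene in an intron of the cyclin E gene cye-1, with 346 and 238. All of the 10 strongest genes ranked 46 or better in replicate 1 and 38 or better in replicate 2, and 8 of them were on the X chromosome.

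The remaining strong genes had closely similar values. F17H10.t1, a glycine gene in an intron of snx-17, had 276 in replicate 1 and 263 in replicate 2. The alanine genes F15G9.t1 and F15G9.t2 lie 87 bp apart in an intron of him-4 and shared a region, with 279 and 264. Its pooled summit lay inside F15G9.t1 and 116 bp before the first base of F15G9.t2. The 10 strongest genes thus had 9 peaks, and the signal given to F15G9.t2 cannot be set against its own flank. F41D9.t3 (asparagine, intron of sulp-3) had 285 and 253, and C42D8.t1 (isoleucine, between genes) had 304 and 227. C06G1.t1 had 301 and 230, and W03G11.t1 had 263 and 252. GAGAGA stood within the 100 bp before 6 of these 10 genes, whose flanks had 41% to 53% GC.

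Summits clustered at the start of the gene. For genes with a peak the median pooled summit lay 14 bp after the first base, with quartiles at 6 bp before and 41 bp after it. The median was 14 bp in replicate 1 and 15 bp in replicate 2. Of the 197 summits, 54 (27.4%) lay before the gene, 129 (65.5%) inside it and 14 (7.11%) after it. For genes with a weaker region the median was also 14 bp, but the quartiles were 39.5 bp before and 69.3 bp after the first base, and 37.2% of summits lay inside the gene. For the 191 peak genes with a region in both replicate lists, the replicates' summits were a median of 22 bp apart, and 148 were within 50 bp.

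The genes nearest to the distance limit of 200 bp were close to it on both sides. Just inside it were C52E12.t2, F46G11.t1 and F42A10.t2, at 183, 182 and 155 bp from the nearest peak summit. Just outside were rte-5 at 201 bp, H08J11.t2 at 203 bp and F12D9.t5 at 263 bp. The glutamate gene rte-5 had a replicate 1 summit 225 bp after its first base, at rank 219. All 6 have another tRNA gene within 1000 bp.

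Isotypes differed little. RefSeq product names gave 607 genes an isotype, and each of the 20 isotypes with 10 or more genes had at least 2 genes with a peak. Cysteine had the largest share, 7 of 13 genes (53.8%, interval 29.1 to 76.8), and tryptophan the smallest, 2 of 12 (16.7%, interval 4.7 to 44.8). The interval of every one of the 20 isotypes held the overall 32.2%. The difference between cysteine and tryptophan of 37.2 percentage points had an interval of -0.26 to 63.1, and these were picked as the extremes.

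Glutamate, alanine and threonine followed cysteine, with 17 of 41 (41.5%), 14 of 34 (41.2%) and 14 of 34 genes. Serine (9 of 39, 23.1%) and histidine (4 of 20, 20%) were next to tryptophan at the low end. The strongest gene of 20 of the 21 isotypes had a peak, with signals down to 346 at the phenylalanine gene T28B4.t1, and 15 of these genes were on the X chromosome. The exception was selenocysteine, whose only gene K11H12.t1 had a weaker region with a signal of 101, at rank 2000 in replicate 1 and 2856 in replicate 2. None of the 5 genes without an isotype had a region in any list.

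**Figure D2:**
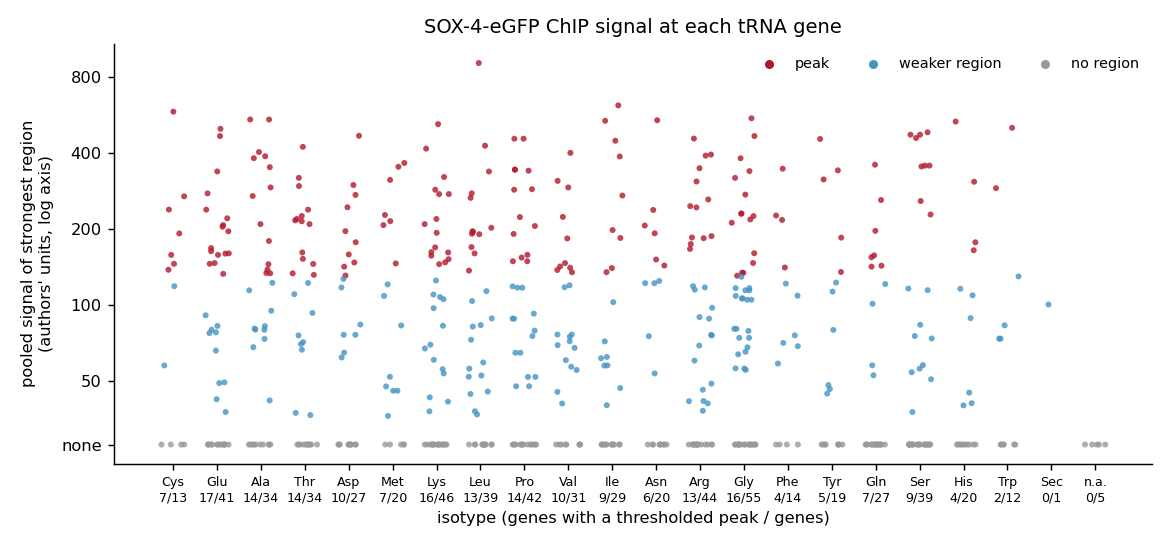
Pooled signal of the strongest region (y, log axis, authors' units) of each of the 612 tRNA genes by isotype (x), with genes without a region drawn at "none" and isotypes ordered by the share of genes with a peak. Every isotype with 10 or more genes holds both genes with a peak and genes without a region.

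The anticodon was read from the gene sequence for 594 genes whose isotype it fitted. Of the 47 anticodons, 43 had at least 1 gene with a peak, and the other 4 held 7 genes in all. Each of the 23 anticodons with 10 or more genes had a peak at some of them. Within glutamate, 10 of 17 TTC genes had a peak (58.8%, interval 36.0 to 78.4), against 7 of 24 CTC genes (29.2%, interval 14.9 to 49.2). Within methionine, the 10 genes with GATCGA in place of the GTTCGA of other tRNAs, the form known from initiator tRNAs, had 4 peaks and 6 regions. The other 10 methionine genes had 3 peaks and 9 regions.

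The internal promoter letters searched here did not set recovered genes apart. The B box core GTTCGANNC was on the sense strand of 441 tRNA genes (72.1%), against 0.707% of windows of 73 bp at the summits of the 29582 pooled regions elsewhere, both strands searched. Genes with it had a peak in 137 of 441 cases (31.1%, interval 26.9 to 35.5), against 60 of 171 without it (35.1%, interval 28.3 to 42.5). Letting the fifth base vary, as GTTCNANNC, which includes every GTTCGANNC, took in 587 genes (95.9%) and 2.36% of the windows elsewhere. Of these 587, 188 (32.0%) had a peak, against 9 of the 25 with neither form (36.0%, interval 20.2 to 55.5). The 25 include the 10 methionine genes with GATCGA, the initiator form, of which 4 had a peak. They are therefore not a set of genes without a B box. The A box core TGGCNNAGT, searched in the same way, was found in 61 genes, or 9.97%, and in 1.17% of the windows elsewhere. With it, 23 of 61 genes had a peak (37.7%), against 174 of 551 without it (31.6%), and the intervals overlapped. This form is narrow and no wider one was searched, so a gene without it may still hold an A box.

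Other features of the gene body gave like shares. Of 29 tRNA genes with an intron of their own, 9 had a peak (31.0%), against 188 of 583 without (32.2%). A run of TTTT, at which RNA polymerase III stops, was found within 40 bp after 605 genes. Of the 7 genes without one, 1 had a peak and 2 had a region.

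By chromosome (X against autosomes) and by host gene the shares with a peak lay close together. The X chromosome, with 276 tRNA genes, had a peak at 87 (31.5%, interval 26.3 to 37.2), against 110 of 336 on the autosomes (32.7%, interval 27.9 to 37.9). The peaks on X were stronger, with a median pooled signal of 273 over peak genes, against 200.1 on the autosomes, and this difference was not tested. Among the autosomes the shares ran from 23.1% on chromosome V to 42.2% on chromosome III. Of 283 genes inside an intron of a protein-coding gene, 91 had a peak (32.2%), against 102 of 319 between genes (32.0%). In introns of a host on the same strand the share was 33.1% of 160, against 31.1% of 122 on the opposite strand. Genes with a protein-coding 5′ end within 500 bp had a peak in 46 of 131 cases (35.1%, interval 27.5 to 43.6), against 151 of 481 without (31.4%, interval 27.4 to 35.7).

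By copy number and by neighbours the shares lay further apart than for X or for host genes. The intervals of these differences treat genes as independent, which identical copies and neighbours that share a peak are not. Genes whose sequence occurs more than once had a peak in 167 of 469 cases (35.6%), against 30 of 143 single-copy genes (21.0%), a difference of 14.6 percentage points (interval 6.13 to 22.0). In replicate 1 the strongest 668 regions covered 160 multi-copy and 28 single-copy genes, and in replicate 2 they covered 148 and 26. The share did not grow steadily with copy number. It was 41.5% with 2 to 5 copies, 28.0% with 6 to 10, 39.7% with 11 to 15 and 34.0% with 16 to 30.

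Genes with another tRNA gene within 1000 bp had a peak in 52 of 236 cases (22.0%), against 145 of 376 without (38.6%), a difference of -16.5 percentage points (interval -23.5 to -9.08). The X chromosome and the autosomes had the same order of the shares with a peak. On X these were 20.7% of 135 with a neighbour and 41.8% of 141 without, and on the autosomes 23.8% of 101 and 36.6% of 235. For any pooled region the order held on X, at 45.9% and 70.9%, but not on the autosomes, at 69.3% and 65.1%. By the number of genes in a chain, each within 1000 bp of the next, the share was 38.6% for 1, 25.6% for 2, 16.7% for 3 and 13.2% for 4 or more. The median GC content of the 100 bp before the gene moved with this, at 44%, 40%, 39% and 37.5%, and its part in the result was not tested.

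The 8 chains of 4 or more tRNA genes held 38 genes, of which 5 had a peak, none in more than 1 gene of a chain. On X, R11.t1 (tyrosine, signal 341) was the only peak gene of 4 identical copies, and F22F1.t6 (methionine, signal 312) the only one of 6 genes for 4 isotypes. Y65A5A.t1 (alanine, chromosome IV, signal 145), H08J11.t3 (glutamine, X, signal 142) and T01B4.t1 (valine, X, signal 137) were the peak genes of 3 more chains. The 6 identical histidine genes from F28H6.t2 to F28H6.t5 on X had no region above a signal of 40.8. On average only 31.7% of the 31-base words in their sequence and flanks occur once in the genome. The chains of 5 arginine and cysteine genes from K01A12.t1 to K01A12.t3 and of 4 identical glycine genes from C12C8.t5 to C12C8.t3 had regions up to 119 and 74.1, and no peak.

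The clearest difference lay in the base composition of the 100 bp before the gene. Their GC content averaged 46.7 ± 6.42% at the 197 genes with a peak, 40.9 ± 7.54% at the 188 genes with a weaker region and 37.3 ± 7.43% at the 227 genes without a region (SD over genes). Genes with more than 45% GC there had a peak in 118 of 203 cases (58.1%, interval 51.3 to 64.7), against 9 of 155 with at most 35% (5.81%, interval 3.08 to 10.7). The difference was 52.3 percentage points (interval 43.9 to 59.4). In replicate 1, 113 and 11 of these genes were among the strongest 668, and in replicate 2, 104 and 9. The window and the limits were chosen after the values were seen, and the interval does not allow for that choice.

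The share followed GC content step by step. It was 3.08% of 65 genes at 30% GC or less, 7.78% of 90 above 30 and up to 35%, 17.1% of 123 up to 40%, 37.4% of 131 up to 45%, 55.9% of 127 up to 50% and 61.8% of 76 above that. The 2 peak genes of the lowest step were the serine gene F42A10.t2, which shared its peak with a neighbour, and the aspartate gene F59C12.t2, with a signal of 177. By GC content 101 to 200 bp before the gene the shares lay between 25.6% and 38.3%, with no such order. Behind the gene there was a smaller one. By GC content of the 100 bp after the gene the share was 25.4% of 323 genes at 30% or less, 38.6% of 140 up to 35%, 38.3% of 81 up to 40%, 48.9% of 47 up to 45% and 38.9% of 18 up to 50%. The mean GC content there was 32.5 ± 6.86% at genes with a peak, 31.4 ± 7.54% at genes with a weaker region and 28.7 ± 7.15% at genes without a region (SD over genes).

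**Figure D3:**
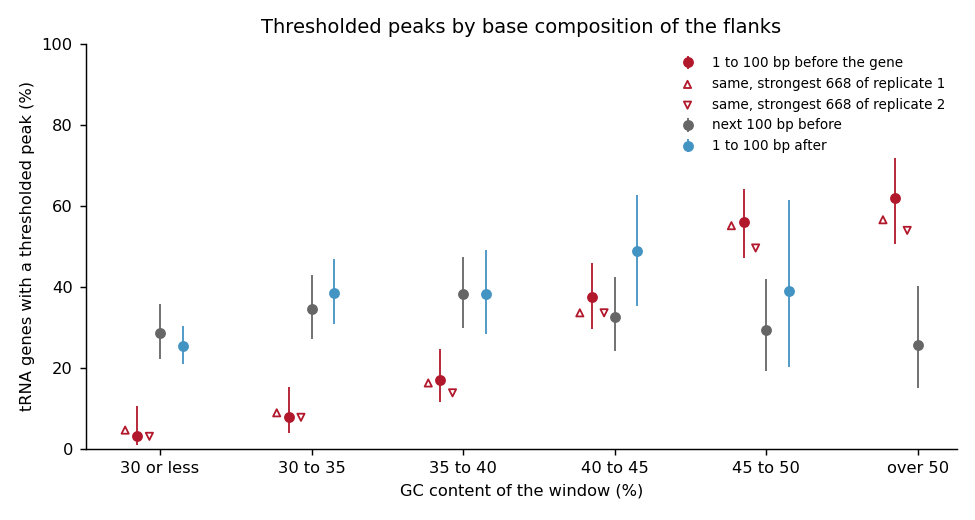
Share of tRNA genes with a peak (y, %) by GC content (x, steps in %) of the 100 bp before the gene, 101 to 200 bp before it and 100 bp after it, as filled points with Wilson 95% intervals (steps under 10 genes left out after the gene). Open triangles give the share among the strongest 668 of each replicate for the first window, which climbs to 61.8% in the pooled list while the window farther out stays between 25.6% and 38.3%.

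The gene bodies were alike in GC content. In the first 20 bp of the gene the mean GC content was 57.8 ± 0.44% for genes with a peak, 58.9 ± 0.51% for genes with a weaker region and 58.0 ± 0.53% for genes without a region (SEM over genes). From 60 to 41 bp before the gene it was 49.6 ± 0.94%, 41.2 ± 1.02% and 36.7 ± 0.80% in the same order. From 180 to 161 bp before the gene it was 33.7 ± 0.96%, 38.1 ± 1.08% and 35.5 ± 1.05%. After the gene the classes were also apart, by less. From 140 to 159 bp after the first base the means were 37.5 ± 0.98%, 34.8 ± 1.01% and 31.2 ± 0.87%. All 3 classes dipped between 40 and 21 bp before the gene, and the genome as a whole had 35.4% GC.

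**Figure D4:**
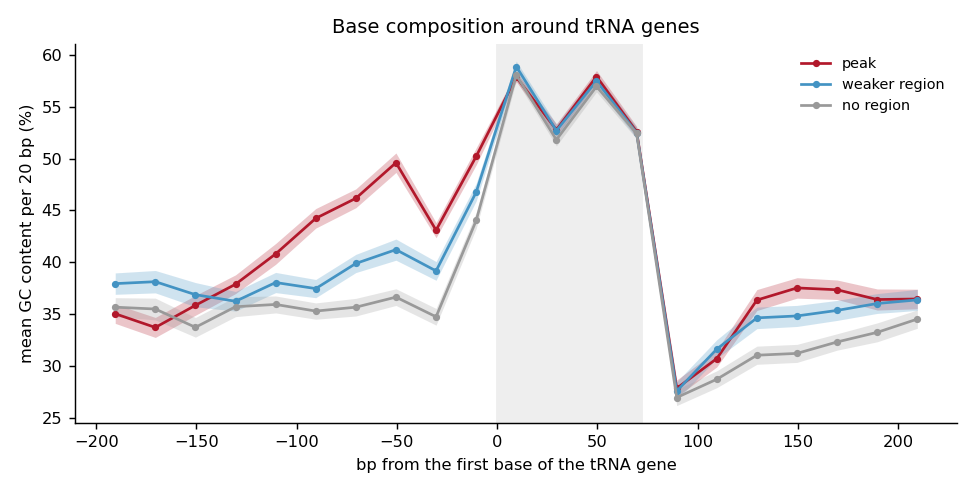
Mean GC content per 20 bp (y, %) by distance from the first base of the gene (x, bp; grey, gene of median length), with shaded SEM over genes, for genes with a peak, with a weaker region and without a region. The lines lie close inside the gene and 200 bp before it, apart from about 100 bp before the gene up to its start, and again, by less, from about 120 bp after the first base.

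Over the 385 genes with a pooled region, the signal and the GC content of the 100 bp before the gene had a Spearman rho of 0.41. It was 0.37 over 388 genes in replicate 1 and 0.39 over 367 genes in replicate 2. With the GC content 101 to 200 bp before the gene it was 0.01, and with that of the 100 bp after it 0.06. These are descriptions over genes that share the libraries and, within an isotype, their sequence.

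The difference was present in each setting examined. On X, 67.7% of 65 genes with more than 45% GC before them had a peak, against 3.41% of 88 with at most 35%. On the autosomes these shares were 53.6% of 138 and 8.96% of 67. Above 45% GC the intervals of X (55.6 to 77.8) and the autosomes (45.3 to 61.7) overlapped, and the median pooled signal was 290 on X, against 158 on the autosomes. In introns they were 57.7% of 104 and 3.28% of 61, and between genes 58.3% of 96 and 7.45% of 94. For genes with another tRNA gene within 1000 bp they were 46.8% of 47 and 6.85% of 73, and for genes without one 61.5% of 156 and 4.88% of 82. Multi-copy genes had 64.9% of 154 and 4.39% of 114, and single-copy genes 36.7% of 49 and 9.76% of 41. At more than 45% GC the interval of the multi-copy genes (57.1 to 72.0) did not overlap that of the single-copy genes (24.7 to 50.7).

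Identical copies allowed flanks to be compared at the same gene sequence. There were 20 families of 10 or more identical copies, with 317 genes, and every one held both copies with a peak and copies without a region. In all 20 the mean GC content before the copies with a peak was above that before the copies without a region. The smallest differences were in proline, at 41.0% and 37.8%, and in cysteine, at 44.7% and 40.8%. Some of these means rest on few copies. Smaller families with both kinds of copy mostly had the same order. The reverse was seen in a family of 7 leucine genes with AAG, at 42% with a peak and 48.3% without a region. The largest family, 29 glycine genes with the anticodon TCC, had 8 copies with a peak, whose flanks averaged 49.5% GC, and 7 without a region, at 37.9%. Its strongest copy was M02F4.t1, with signals of 284 in replicate 1 and 186 in replicate 2, and its copy C12C8.t3 had no region in any list.

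Other large families were alike. Of 25 lysine genes with CTT, 10 had a peak (49.5% GC before them) and 8 had no region (41.6%), with W03G11.t1 at the top and C17D12.t1 without a region. Of 21 aspartate genes, 9 had a peak (42.4%) and 8 had no region (34.2%). The share of copies with a peak ran from 18.2% to 60.0% over the 20 families. Reads that end inside an identical copy cannot be placed by sequence alone, and no source used here gives the treatment of reads with several matches. The signal of single copies is therefore uncertain.

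**Figure D5:**
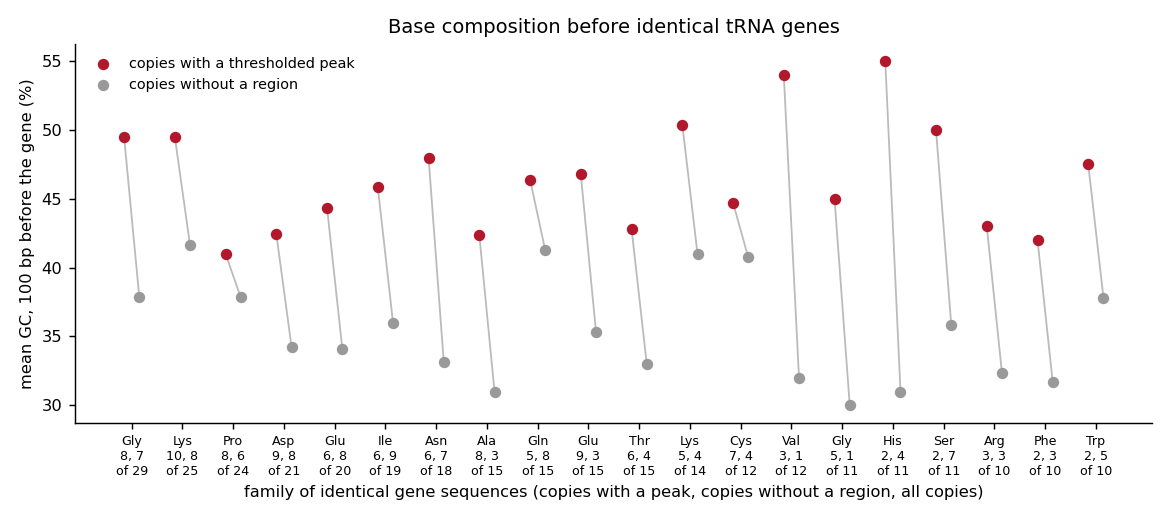
Mean GC content of the 100 bp before the gene (y, %) in each of the 20 families of 10 or more identical tRNA genes (x), for copies with a peak (red, left) and copies without a region (grey, right). The red point is the higher of the pair in all 20 families.

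Uniqueness of the surroundings was measured as the share of 31-base words within 200 bp of the gene that occur once in the genome. Its median was 87.6% for genes with a peak, 87.6% for genes with a weaker region and 87.1% for genes without a region. The means were further apart, at 86.8 ± 5.20%, 85.8 ± 7.78% and 81.7 ± 16.7% in the same order (SD over genes). None of the 17 genes at 50% or less had a peak and 2 had a region. None of the 16 genes with every word unique, all of them single copies, had a peak and 3 had a region, although 15 of the 16 held a B box core in either form. With more than 50 and up to 75% the share with a peak was 16.7% of 42 genes, and 38.1% of them had a region. With more than 75 and up to 90% the share with a peak was 36.0% of 455 genes, and 68.4% had a region.

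Composition also moved with signal at regions away from tRNA genes, at much lower shares. By GC content of the 101 bp around the summit, the share of peaks among regions near a tRNA gene was 5.00% of 40 at up to 35% GC and 72.7% of 55 above 55%. For regions elsewhere it was 0.190% of 6829 and 5.06% of 2452. At the same GC content of above 45 and up to 50% it was 51.0% of 96 regions near a tRNA gene (interval 41.2 to 60.8), against 1.82% of 5390 elsewhere (interval 1.49 to 2.21). Near tRNA genes the 101 bp window takes in more of the GC-rich gene when the summit lies inside it. Summits lay inside the gene at 65.5% of genes with a peak and at 37.2% of genes with a weaker region. The part of summit position, and that of composition in the recovery or sequencing of DNA, were not tested.

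Among all 6-base words, read on both strands, GAGAGA showed the largest excess in the 100 bp before genes with a peak over genes without a region, so it was chosen for that. It stood before 75 of 197 genes with a peak (38.1%, interval 31.6 to 45), 18 of 188 with a weaker region (9.57%) and 16 of 227 without a region (7.05%, interval 4.38 to 11.1). All windows of this length before protein-coding 5′ ends had it in 8.78% of cases, windows at the summits of other peaks in 18.0% of 483, and windows at weaker regions elsewhere in 9.26%. After the gene it was rare, at 3.55%, 3.19% and 3.52% of genes with a peak, with a weaker region and without a region. Both orientations occurred before genes with a peak, with GAGAGA at 31 and TCTCTC at 47. They began most often 41 to 60 bp before the gene, at 36 peak genes.

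Seen from the word, 75 of the 109 genes with GAGAGA before them had a peak (68.8%), against 122 of 503 without it (24.3%), a difference of 44.6 percentage points (interval 34.5 to 53.2). The word was picked for its excess in these lists, and the interval does not allow for that choice. In replicate 1, 67 of the 109 were among the strongest 668, and in replicate 2, 69. At more than 45% GC, 86.5% of 52 genes with it had a peak, against 48.3% of 151 without it. Above 35 and up to 45% GC these shares were 60.4% of 48 and 19.9% of 206. At 35% or less, 1 of 9 genes with it had a peak, against 8 of 146 without it. On X the shares were 75.5% of 53 and 21.1% of 223, and on the autosomes 62.5% of 56 and 26.8% of 280.

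Words of A and T showed the reverse. ATAAAA stood before 8.63% of genes with a peak, against 31.7% of genes without a region, and AAAAAT before 16.8% against 39.2%. The letters ACAAAG or ACAATG, which match the sequence known to be bound by SOX proteins, were found within 50 bp of the summit in 7 of 185 peaks near tRNA genes (3.78%, interval 1.84 to 7.60). In the other peaks they were in 37 of 483 (7.66%, interval 5.61 to 10.4). Among weaker regions they were in 8.15% of 233 near tRNA genes, against 9.29% of 29099 elsewhere. Both strands were searched, and a window without these letters says nothing of what was bound there.

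Of the 197 genes with a peak, 6 were near a replicate 1 region and near none of replicate 2. They were Y4C6B.t1, F18C5.t1, C03A3.t1, C11E4.t1, Y51H4A.t4 and K11E4.t2, at replicate 1 ranks of 140, 289, 424, 510, 806 and 1028. Among the 191 with a region in both lists, the ranks differed most at 5 genes. C52E12.t2, a threonine gene in an intron of unc-104, ranked 14640 in replicate 1 and 434 in replicate 2. There the replicate 1 summit lay 20 bp before the gene and the replicate 2 summit 188 bp before it, so the lists assigned different regions. The others were higher in replicate 1. F52E10.t5 (glutamate) ranked 385 and 2714, and W03C9.t1 (valine) ranked 144 and 997 in replicates 1 and 2. F28F5.t1 (asparagine) ranked 290 and 1919, and W02G9.t2 (threonine) 473 and 2963. By contrast, 148 of these 191 genes differed by less than a doubling of rank.

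Genes for the protein partners of tRNAs were counted as well, in lists too short to compare shares of peaks. Aminoacyl-tRNA synthetases load tRNAs with their amino acids. Of 20 matched synthetase genes, 11 had a pooled region from 500 bp before to 100 bp after a 5′ end (55%) and 1 had a peak (5.00%), against 25.3% of protein-coding genes with a region and 1.67% with a peak. The peak was at tars-1, for threonine, with a signal of 141 at rank 525, and the highest of the rest was fars-3, a subunit for phenylalanine, with 81.2. The median signal of the 11 was 60.0, against 57.4 at all protein-coding promoters with a region.

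Of 10 genes of the polymerase III machinery, none had a peak, against 1.67% of protein-coding genes, and 4 (40%) had a region, against 25.3%. The 4 were tftc-1, rpc-11, rpc-1 and tbp-1, with signals of 57.1, 46.7, 45.1 and 36.5. The first is a subunit of TFIIIC, rpc-11 and rpc-1 are polymerase subunits, and tbp-1 is the TATA-binding protein. The regulator mafr-1, known as a repressor of polymerase III, had no region. The lists were chosen by hand, and vars-2 matched no gene in the annotation.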

How the data were processed

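Anti-GFP ChIP-seq libraries of 1 group, 2 in number, were used, with replicate numbers from the labels. Per the descriptions deposited with each library, the authors called regions on each replicate and on both pooled against a control alignment, and made a thresholded list by the irreproducible discovery rate. Each region's signal is the value the authors deposited, relative to the control alignment. The sources used here do not name the aligner, the peak caller or their versions, nor how reads with several matches were treated. Signal values are not on 1 scale across lists, so genes were compared between lists by rank, and replicate values are printed side by side only as each list gives them. No depth can be derived from them.

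Genes came from Ensembl release 115 and isotypes and sequence from the RefSeq copy of the same assembly. Anticodons were read from the best stem of the gene without its intron. Words of 31 bases were counted on both strands. Clustered genes lie within 1000 bp of each other. Intervals are Wilson 95% intervals, and those of differences combine them. No test was run over genes. Python 3.11.15 was used with scipy 1.17.1, pandas 2.3.3, numpy 2.4.6 and matplotlib 3.10.9, and the assignment was tested on simulated data.

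The members and lists were chosen with earlier results of these data known. Named genes were the 10 strongest, the strongest of each isotype, the strongest and weakest copy in the 4 largest families, the 5 with the largest replicate difference in log2 rank among genes with a peak, 3 on either side of 200 bp, chains of 4 or more genes and list members with a peak. F59C12.t2, the other listed genes, the GC window and GAGAGA were chosen after their values were seen.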

Additional observations from a re-analysis of the deposited data

How the results depend on the processing

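No paired analysis was possible because there is 1 group. A share difference was counted as unchanged when it stayed within its 95% interval, a median within 1 SD between the replicate lists, and a count within 1.5 times. Of 119 recomputed values, 93 were unchanged and 26 moved. The alternatives for GC content, GAGAGA and the B box in either form were chosen after the data were seen.

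With each list of a single replicate, genes with a peak or in its strongest 668 numbered 174 to 188, and genes with a region 367 to 388. The median signal was 59.6 to 73.2, in units of those lists that cannot be set against the pooled 133, so these 2 of the 26 moved values say nothing on stability. The SD used for the other signal medians is in those units too. In the replicate lists the median summit lay at 14 to 16 bp. With the summit required inside the gene, 129 genes had a peak and 205 a region, the median signal was 157, the median summit 32 bp and the replicate rho 0.91. The difference by GC content was then 42.2 points and by GAGAGA 31.3 points. Within 500 bp the median signal was 122 and the median summit 15.5 bp. With only the 334 strongest peaks the differences by GC content and GAGAGA were 39.5 and 31.4 points. With any pooled region in place of a peak, 385 genes counted, and the difference by GAGAGA was 27.3 points and by the B box core 6.15 points. Keeping each region for 1 gene gave a median summit of 17.5 bp. Only genes with the B box core gave a median signal of 122. Only the 100 genes with at least 90% unique words gave 26 peak genes, a median signal of 118, a median summit of 28.5 bp and a rho of 0.81. Among them the differences were 25.5 points by copy number, -18.2 points for intronic genes and 26.4 points by GAGAGA.

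The differences by chromosome, intron, 5′ end and B box had intervals that held 0, and their sign varied with the setting: from -7.67 to 3.02 points for X, -18.2 to 5.22 for introns, -0.595 to 8.53 for 5′ ends -4.91 to 6.15 for the B box core and -3.97 to 11.4 for either form. Those by neighbour (-22.0 to -10.6), copy number (8.34 to 25.5), GC content (39.5 to 55.9) and GAGAGA (26.4 to 46.6) kept their sign in every setting run. The GC window and GAGAGA were chosen from these same lists, so the constant sign of their differences is no independent support. No isotype of the 100 genes with unique flanks could be compared. With 2 libraries and no read counts, the error of a single gene's signal is unknown, and no list without the tagged protein was used.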
